A study of Mus musculus with 40 samples.

Results

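The regions described here are places in the mouse genome that carried an H3K4me3 peak again and again in brown adipose tissue. No transcript of the GENCODE M21 annotation starts nearby, although RefSeq, another annotation, places starts inside some of them. H3K4me3 peaks of the 8 H3K4me3 lists were merged into 27971 regions on chromosomes 1 to 19. Of these, 17503 were recurrent, that is, they held a peak in 4 or more lists, and 2557 of the recurrent regions (14.6%) lay more than 5000 bp from the 5′ end of every transcript of any gene type in the GENCODE M21 annotation of GRCm38. These 2557 distal recurrent regions are compared below with the 14946 recurrent regions within 5000 bp of a start site and with 4812 regions as far from a start site that had a peak in only 1 to 3 lists. The regions were chosen by the presence of H3K4me3 peaks, so H3K4me3 values are given as a description with no test, while H3K27ac, H3K4me1 and H3K27me3 took no part in the choice.

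Chromatin immunoprecipitation followed by sequencing (ChIP-Seq) was carried out on tissue labelled iBAT from wild type C57BL/6N mice of 20 weeks. The 8 libraries per mark carry mouse numbers: mice 1 and 2 were warm on NCD (chow), mice 4 and 5 were cold on NCD, mice 7 and 8 were warm on HFD (a high-fat diet, begun at 8 weeks and kept up for 12), and mice 10 and 11 were cold on HFD, cold being 4 °C for 24 h. The study's methods mention 2 mice per sequencing experiment, which does not say whether a numbered library holds 1 animal or pooled tissue, and each is called a mouse here. The series text calls the tissue inguinal, and the text of the study interscapular brown fat. The study used these marks to ask whether a noncoding RNA locus looked like a promoter or an enhancer.

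Trimethylation of histone H3 at lysine 4 (H3K4me3) is laid down around transcription start sites, most strongly at CpG islands, whereas monomethylation of the same residue (H3K4me1) marks the flanks of promoters and enhancers. Acetylation at lysine 27 (H3K27ac) is found at active promoters and enhancers, and trimethylation at that residue (H3K27me3) is left by Polycomb at silent genes. H3K4me3 away from known starts is therefore seen at unannotated promoters, at active enhancers and at genes read by RNA polymerase III, such as those of transfer RNAs (tRNAs).

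The lists differed in length, which touches every presence value below. H3K4me3 lists held 13517 (mouse 7) to 24104 (mouse 11) peaks, H3K27ac lists 3224 (mouse 7) to 40604 (mouse 11), H3K4me1 lists 12 (mouse 7), 18 (mouse 10) and 592 (mouse 1) to 27568 (mouse 5), and H3K27me3 lists 20 to 6428. Read depth is unknown, since peak lists carry no read counts. At start sites, 48 of 53 adipocyte genes, Ucp1, Cidea and Dio2 among them, held H3K4me3 in all 8 mice and all 53 held H3K27ac in 4 or more. Of 12 endothelial genes, 8 held H3K4me3 in all 8 mice. H3K4me3 was missing in every mouse at 9 of 18 skeletal muscle genes, at 7 of 12 macrophage genes and at 5 of 6 liver and neuron genes.

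The regions differed in their letters as well as in their marks, and 4 named examples that the results below return to are printed with their GRCm38 coordinates, 300 bases around the summit on the plus strand, CG pairs in capitals. The first is a CpG-rich intergenic region with H3K27ac (chr12:8640788-8641087, 32403 bp from the start of Pum2). The next is an intronic region with H3K27ac in all 8 mice and H3K4me1 in 4 (chr3:88149531-88149830, in Mef2d). The third had neither mark in any mouse (chr7:7188208-7188507, nearest to Zfp418). The last lay in an intron of the noncoding gene Gm16675, 52144 bp from Irf2, with strong H3K27ac and no H3K4me1 (chr8:46686965-46687264). GC content was 66.3%, 55.0%, 50.7% and 54.7% in this order, and the observed to expected CpG ratio 0.761, 0.180, 0.605 and 0.494.
Pum2: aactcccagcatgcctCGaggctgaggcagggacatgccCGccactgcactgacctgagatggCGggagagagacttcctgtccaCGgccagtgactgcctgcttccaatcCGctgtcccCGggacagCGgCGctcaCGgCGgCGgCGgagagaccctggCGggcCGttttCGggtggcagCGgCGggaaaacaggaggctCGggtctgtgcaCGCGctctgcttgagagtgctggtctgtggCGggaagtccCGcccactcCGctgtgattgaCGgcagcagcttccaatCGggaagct
Mef2d: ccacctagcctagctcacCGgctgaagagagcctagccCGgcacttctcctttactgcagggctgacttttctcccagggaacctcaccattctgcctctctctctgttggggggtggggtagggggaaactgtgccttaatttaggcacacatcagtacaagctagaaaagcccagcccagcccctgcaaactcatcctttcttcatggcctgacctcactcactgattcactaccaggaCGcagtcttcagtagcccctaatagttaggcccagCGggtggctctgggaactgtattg
Zfp418: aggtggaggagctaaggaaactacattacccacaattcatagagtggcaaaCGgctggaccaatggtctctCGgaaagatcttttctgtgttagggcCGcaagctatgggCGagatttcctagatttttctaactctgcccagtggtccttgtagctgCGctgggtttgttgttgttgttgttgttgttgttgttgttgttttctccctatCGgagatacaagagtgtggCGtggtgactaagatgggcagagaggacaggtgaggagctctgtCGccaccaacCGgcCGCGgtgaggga
Gm16675: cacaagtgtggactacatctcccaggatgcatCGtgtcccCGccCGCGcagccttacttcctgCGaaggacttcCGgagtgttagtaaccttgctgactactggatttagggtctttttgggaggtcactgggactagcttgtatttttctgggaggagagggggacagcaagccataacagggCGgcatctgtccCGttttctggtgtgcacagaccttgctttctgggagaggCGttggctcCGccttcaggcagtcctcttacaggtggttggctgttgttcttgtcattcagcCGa

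Distal recurrent regions were narrower and weaker than those at start sites. Their median width was 791 bp (quartiles 571 and 1096, range 259 to 6105), against 1721 bp near start sites and 335 bp for distal regions in 1 to 3 lists. Fold enrichment over input was ranked within each list, and the median percentile was 29.7 for distal recurrent regions, 65.0 near start sites and 13.1 for distal regions in 1 to 3 lists. Both measures come from the H3K4me3 peaks that chose the regions. By number of lists, 616 distal regions were in 4, 527 in 5, 439 in 6, 522 in 7 and 453 in all 8. Just outside the threshold, 778 distal regions were in 3 lists, with a median width of 503 bp and a median percentile of 17.7, against 573.5 bp and 19.9 for those in 4 lists. At the distance threshold, regions near Asic1 and Ifnar2 at 5000 bp stayed out and regions near Scgb1a1 and Gm13655 at 5010 bp came in.

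More than 50% of the regions were intergenic. In all, 1485 (58.1%) overlapped no annotated gene, 840 (32.9%, 95% Wilson interval 31.1% to 34.7%) overlapped introns only, and 232 (9.07%) touched an exon, 167 of them coding sequence. Of distal regions in 1 to 3 lists, 50.1% were intronic. The median distance to the nearest start was 14069 bp, with 847 regions closer than 10000 bp and 231 beyond 50000 bp. The nearest start belonged to a protein-coding gene for 1337 regions, to a lincRNA for 366 and to a processed pseudogene for 323. RefSeq, a second annotation of the assembly, held a transcript start inside 185 of the regions (7.24%) and within 1000 bp of 314 (12.3%), and 2027 (79.3%) were over 5000 bp from a RefSeq start too.

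Base composition at the summit lay between that of the comparison sets. In the 300-bp window, median GC content was 54.3%, against 64.3% near start sites and 52.0% for distal regions in 1 to 3 lists. Counting a window as CpG-rich with GC of 50% or more and a CpG ratio of 0.6 or more, 601 distal recurrent regions (23.5%) qualified, against 71.0% near start sites and 8.17% of distal regions in 1 to 3 lists. Letter matches on either strand moved the same way for GGGCGG (the GC box), present in 24.2%, 47.8% and 12.7% of windows in this order. CCAAT matched in 28.1%, 18.5% and 30.6%, TATAAA in 6.69%, 2.65% and 8.87%, AGGTCA (part of many nuclear receptor sites) in 17.2%, 12.9% and 19%, and TGACG (part of the cAMP response element) in 20.0%, 23.7% and 17.1%. These are letter matches and not measured sites, and no difference between sets was tested.

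H3K27ac was found at most of the regions in at least 1 mouse, and less often than near start sites. A peak overlapped 1548 of the 2557 (60.5%) in 1 or more mice, 1051 (41.1%) in 4 or more and 158 in all 8. By mouse, in the order 1, 2, 4, 5, 7, 8, 10 and 11, the share of distal recurrent regions with H3K27ac was 27.6%, 47.3%, 46.6%, 47.5%, 6.37%, 39.9%, 24.9% and 48.6%, and near start sites 50.1%, 66.6%, 50.6%, 67.0%, 6.76%, 59.4%, 30.1% and 67.6%. The share was lower at distal recurrent regions in 8 of 8 mice, and mouse 7 was low in every set. The mean was 36.1% ± 15.2 (SD, n = 8) against 49.8% ± 21.5 near start sites, a difference within mice of -13.7 percentage points (SD 8.85), with a two-sided exact sign-flip permutation p of 0.0078125, the smallest that 8 mice can give, and an adjusted p of 0.0156 over 6 such tests. Left unpaired, as 8 values against 8, the same means gave an adjusted exact permutation p of 0.727. The regions near start sites were also wider. In a window of 1000 bp at the summit the paired difference was -11.7 points. There 2 of 8 mice were higher at distal recurrent regions, with an adjusted exact sign-flip permutation p of 0.0375.

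Against distal regions in 1 to 3 lists, H3K27ac was more frequent at the recurrent ones. The comparison regions held H3K27ac in 28.8% ± 13.5 (SD, n = 8), the recurrent regions were higher in 8 of 8 mice by 7.26 points on average (SD 3.22), and the exact sign-flip permutation test gave an adjusted p of 0.0156. The recurrent regions were also wider, and in a window of 1000 bp at the summit the difference was 4.55 points, higher in 7 of 8 mice, with an adjusted exact permutation p of 0.0234. The direction did not hold when each mouse counted only regions with an H3K4me3 peak in that same mouse: the difference was then -8.02 points, with an adjusted exact permutation p of 0.508. A region in 1 to 3 lists enters that count only in the mice where it had a peak. Without mice 7 and 10, whose H3K4me3 lists were shortest, the differences were -17.6 points from regions near start sites and 8.01 points from distal regions in 1 to 3 lists, each in the same direction in 6 of 6 mice with an adjusted exact permutation p of 0.0469; this setting was chosen after the data had been seen.

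**Figure D1:**
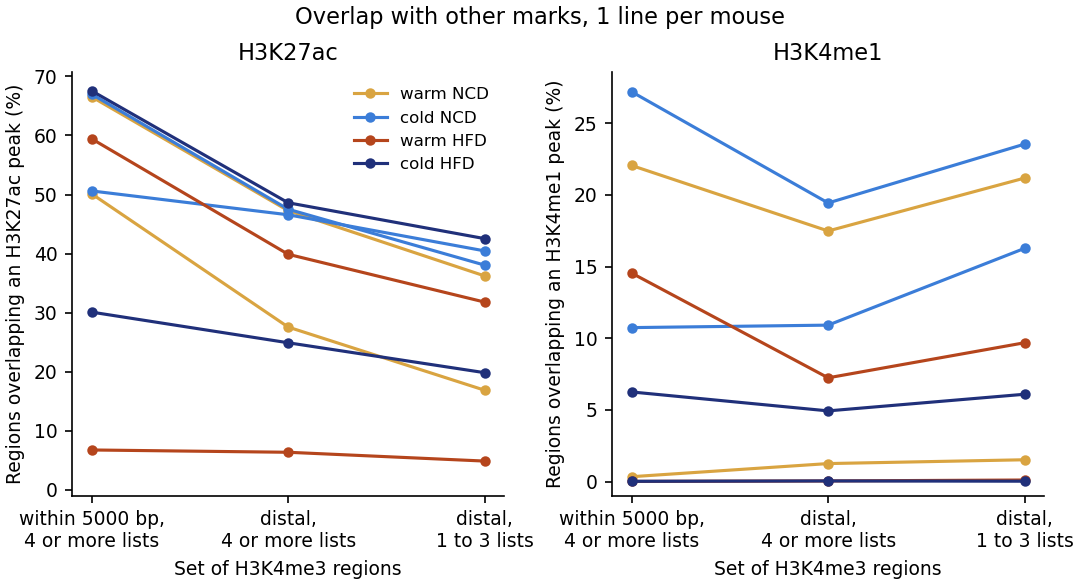
Percent of H3K4me3 regions overlapping an H3K27ac peak (left) or an H3K4me1 peak (right) in 3 sets of regions, 1 line per mouse, coloured by condition. H3K27ac fell from left to right in every mouse, from 67.6% to 48.6% and 42.5% in mouse 11, whereas H3K4me1 lines rose and fell and 3 of them lay near 0.

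H3K4me1 marked fewer regions, and the order of the sets depended on how overlap was counted. It overlapped 728 distal recurrent regions (28.5%) in 1 or more mice and 118 in 4 or more. By mouse, in the order above, the share was 1.25%, 17.5%, 10.9%, 19.4%, 0.0391%, 7.24%, 0.0391% and 4.93%. Mice 1, 7 and 10, with the shortest H3K4me1 lists, were lowest. The mean was 7.67% ± 7.66 (SD, n = 8), against 10.1% ± 10.5 near start sites, with 4 mice higher and 4 lower and an adjusted exact permutation p of 0.15. Among the 4 higher were mice 7 and 10, with H3K4me1 at 1 distal recurrent region each. Mouse 1, also higher, had 32, of which 15 lay in the chromosome 6 array described below. Counted in a window of 1000 bp at the summit, distal recurrent regions were higher in 8 of 8 mice by 3.73 points, with an adjusted exact permutation p of 0.0234. These include mice 7 and 10, whose H3K4me1 lists held 12 and 18 peaks. The window is wider than the median distal recurrent region (791 bp) and narrower than the median region near start sites (1721 bp). It thus does more than remove an advantage of width. Where H3K4me1 lay relative to the summits was not measured, and the cause of the changed order was not tested. Against distal regions in 1 to 3 lists (9.80% ± 9.50), distal recurrent regions were lower in 7 of 8 mice, with a mean difference of -2.14 points and an adjusted exact permutation p of 0.0234, which became 0.131 when the distance limit was 10000 bp, 0.082 when only H3K4me1 peaks with −log10 q of at least 5 were counted, 0.0625 over mice with 500 or more H3K4me1 peaks, and 0.727 unpaired. The difference was -6.51 points in the 1000-bp window and -10.3 over regions with H3K4me3 in the same mouse, with adjusted exact permutation p of 0.0234 and 0.0469. In the latter count a region in 1 to 3 lists enters only in the mice where it had a peak. That count uses the H3K4me3 values that chose the regions and cannot back the main difference.

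H3K27me3 was rare. It overlapped 52 regions (2.03%), 50 of them in mouse 5, whose H3K27me3 list of 6428 peaks was the longest. In mice 1, 2, 4, 5, 7, 8, 10 and 11 the counts were 1, 2, 2, 50, 1, 2, 1 and 5. Outside mice 5 and 11, the shares and directions below therefore rest on 1 or 2 distal recurrent regions per mouse. The mean was 0.313% ± 0.666 (SD, n = 8) against 0.584% ± 0.708 for distal regions in 1 to 3 lists, lower in 8 of 8 mice with a mean difference of -0.272 points and an adjusted exact permutation p of 0.0156, which became 0.152 with gene starts only, 0.244 with the basic annotation, 0.5 over the mice with 500 or more H3K27me3 peaks and 0.727 unpaired. Over regions with H3K4me3 in the same mouse that difference was -9.03 points, with an adjusted exact permutation p of 0.0469. A region in 1 to 3 lists enters that count only in the mice where it had a peak. The count thus uses the H3K4me3 values that chose the regions and cannot back the main difference. Against regions near start sites (0.856% ± 1.97) the mean difference was -0.543 points with an adjusted exact permutation p of 0.5, but distal recurrent regions were higher in 6 of 8 mice, by at most 0.0581 points, and lower only in mouse 5, by -3.71, and mouse 11, by -0.795. One region, in an intron of Kctd16 on chromosome 18 and 276 bp wide, held H3K27me3 in all 8 mice together with H3K27ac in 6, H3K4me1 in 6 and H3K4me3 in 4. Its H3K4me3 fold enrichment was 7.10, 7.15, 6.58 and 5.44 in mice 1, 2, 7 and 10. It is the only distal recurrent region with all 4 marks in 4 or more mice. In mice 1, 7 and 10 it was the only one with H3K27me3. In mice 7 and 10, whose H3K4me1 lists held 12 and 18 peaks, it was also the only one with H3K4me1. In mouse 5 its fold was 34.0 for H3K27me3 and 19.4 for H3K4me1. Whether its peaks reflect 4 separate marks was not tested. Of the regions with H3K27me3 in 2 mice, the named ones lay 6253 bp from Pax3, a developmental transcription factor gene, and 53502 bp from Ap3b1, neither with H3K27ac.

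Taking both marks together, 921 regions (36.0%) had neither H3K27ac nor H3K4me1 in any mouse, 908 had H3K27ac without H3K4me1, 640 had both and 88 had H3K4me1 alone. The 921 unmarked regions were more often CpG-rich (33.2%, against 14.2% of the 640 with both marks) and less often intronic (24.5% against 45.9%). H3K27ac in 4 or more mice was seen at 50.7% of intronic, 36.4% of intergenic and 36.6% of exonic regions, and at 26.6% of CpG-rich against 45.6% of other regions. By recurrence it was 35.7% of the regions in 4 lists, 36.4% in 5, 31.7% in 6, 40.4% in 7 and 63.8% in 8, whereas H3K4me1 in 1 or more mice stayed between 25.5% and 31.3%. None of these differences between classes of regions was tested.

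**Figure D2:**
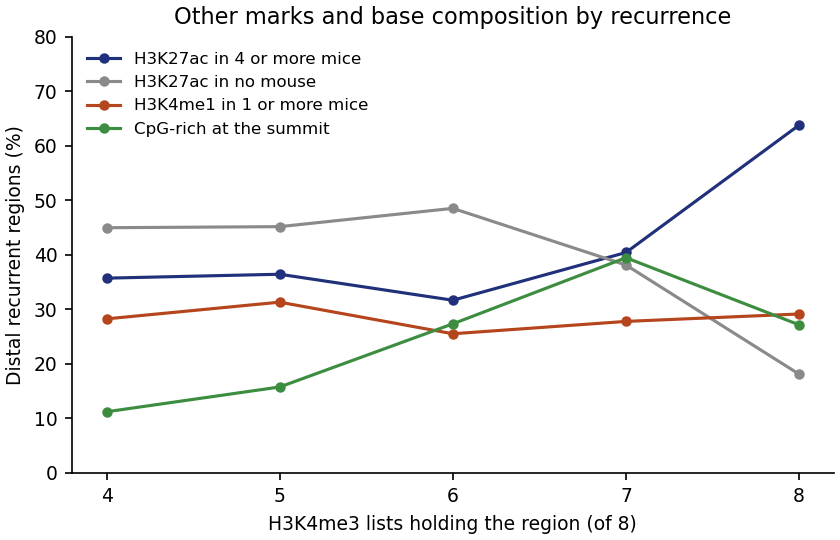
Percent of distal recurrent regions with H3K27ac in 4 or more mice, H3K27ac in no mouse, H3K4me1 in 1 or more mice, or a CpG-rich summit window, by the number of H3K4me3 lists that hold the region (616, 527, 439, 522 and 453 regions). H3K27ac in 4 or more mice reached 63.8% in 8 lists, and CpG-rich windows peaked at 39.5% in 7 lists.

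The 10 strongest regions in all 8 lists were ranked by median percentile of H3K4me3 fold enrichment. The region at chr12:8640166-8641731, nearest to Pum2, which encodes an RNA-binding repressor of translation, had fold enrichments of 46.5, 50.6, 21.5, 146, 3.97, 24.1, 30.7 and 46.4 in mice 1, 2, 4, 5, 7, 8, 10 and 11, and H3K27ac in 7 mice, all but mouse 7. It was highest in mouse 5 and lowest in mouse 7, and the nearest RefSeq start was 32361 bp away. The region at chr8:46686454-46687588, in Gm16675 and nearest among coding genes to Irf2, an interferon regulatory factor, had 40.9, 46.1, 44.1, 47.9, 11.7, 22.5, 22.3 and 22.9, with H3K27ac in all 8 mice at folds of 9.59 to 36.1. By fold, mice 1, 2, 4 and 5 were above the HFD mice. By within-list percentile, mouse 5 was lowest at 60.4 and HFD mouse 11 next at 68.3. HFD mice 7, 8 and 10 were at 92.5 to 94.0. Near Klrb1c, a receptor gene of natural killer cells, 2 of the 10 lay at chr6:128760077-128761414 and chr6:128798284-128800204, each with H3K27ac in 7 mice and no H3K4me1. Their summit windows share long stretches of sequence without a mismatch. How far reads that match both places touch these values was not tested.

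Of the 10, 3 held a RefSeq transcript start that GENCODE M21 lacks. These were the regions at chr13:62652610-62653710 (Gm36298), chr6:128798284-128800204 (Gm34755) and chr5:104570973-104572475 (Zfp33b, a zinc finger gene). The Zfp33b region had fold enrichments from 14.0 in mouse 7 to 64.5 in mouse 5 and H3K27ac in mice 1, 2, 4, 5 and 11. Another 3 held tRNA genes, described next. The region at chr19:61199430-61200286, 15540 bp from Gm6020, was the least even of the 10, with 149, 92.6, 81.0, 231, 5.92, 5.40, 75.4 and 22.5 in the mouse order above, and H3K27ac in mouse 4 only.

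**Figure D3:**
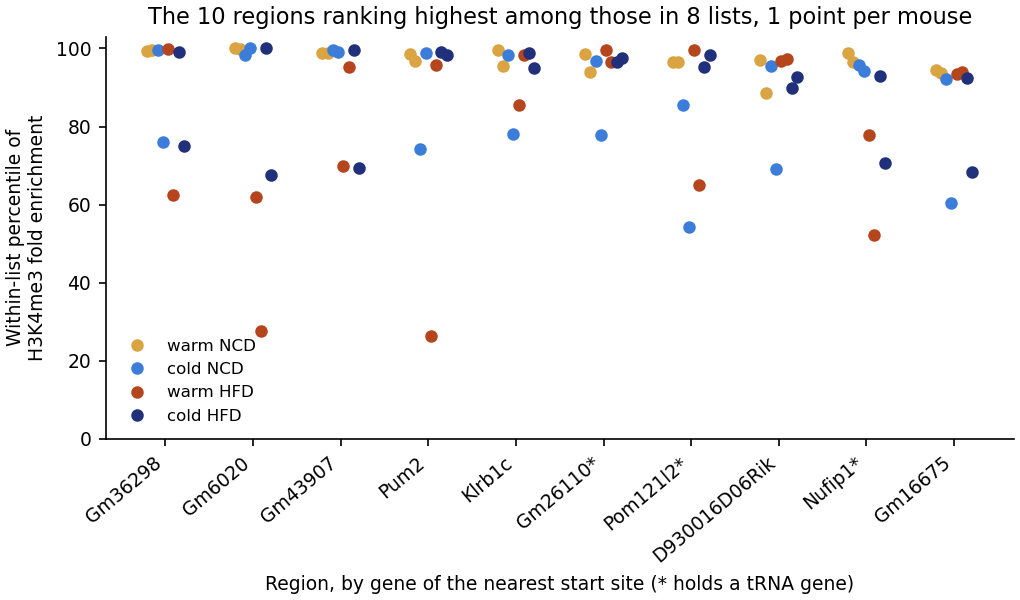
Within-list percentile of H3K4me3 fold enrichment for the 10 regions with the highest median percentile among those in 8 lists, 1 point per mouse coloured by condition; asterisks mark regions with a tRNA gene. Of the 80 points, 56 lay above 90, and the lowest were 26.3 at the Pum2 region in mouse 7 and 27.6 at the Gm6020 region in mouse 8.

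Nuclear tRNA genes, which RefSeq lists and the GENCODE M21 start sites lack, were inside 43 of the distal recurrent regions (1.68%, 95% Wilson interval 1.25% to 2.26%), 71 tRNA genes in all. They were looked up after the strongest regions had been seen. The same count was 75 regions (0.502%) near start sites and 4 (0.0831%) among distal regions in 1 to 3 lists. Of the 43, 34 were in all 8 H3K4me3 lists, and their median percentile was 65.5, against 29.6 for the distal recurrent regions without a tRNA gene. In mouse 7, 38 of the 43 had H3K4me3, while 23.8% of all distal recurrent regions did. H3K27ac in 4 or more mice was seen at 22 of them and H3K4me1 in any mouse at 4 (9.30%). Chromosome 13 held 15 of the 43 (chr13:21158740-23454584), and 105 of the 386 autosomal tRNA genes.

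Of the 10 strongest regions, the 2 with a single tRNA gene are printed as 300 bases centred on it, read along the gene, with the tRNA gene in capitals. The region at chr13:21974152-21975181 holds n-TMcat8, a methionine tRNA gene (window chr13:21974917-21975216, plus strand). Its H3K4me3 fold enrichments were 42.9, 49.7, 31.3, 36.0, 19.5, 12.5, 24.9 and 46.0, and H3K27ac was present in all 8 mice. The region at chr14:76151861-76153641, 40970 bp from Nufip1, holds n-TEttc6, a glutamic acid tRNA gene (window chr14:76152659-76152958, plus strand). Its fold enrichments were 47.7, 49.8, 59.5, 122, 7.49, 9.72, 22.6 and 24.4, with H3K27ac in 7 mice. In each region the H3K4me3 summit lay beside the gene, at 230 and 275 bp, and neither had H3K4me1 in any mouse.
n-TMcat8: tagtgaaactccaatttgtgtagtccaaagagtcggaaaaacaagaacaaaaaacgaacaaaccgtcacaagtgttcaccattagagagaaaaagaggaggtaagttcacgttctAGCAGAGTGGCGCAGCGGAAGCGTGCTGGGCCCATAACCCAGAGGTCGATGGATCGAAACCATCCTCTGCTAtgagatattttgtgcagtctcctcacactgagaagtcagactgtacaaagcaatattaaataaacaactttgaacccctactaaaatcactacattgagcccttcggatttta
n-TEttc6: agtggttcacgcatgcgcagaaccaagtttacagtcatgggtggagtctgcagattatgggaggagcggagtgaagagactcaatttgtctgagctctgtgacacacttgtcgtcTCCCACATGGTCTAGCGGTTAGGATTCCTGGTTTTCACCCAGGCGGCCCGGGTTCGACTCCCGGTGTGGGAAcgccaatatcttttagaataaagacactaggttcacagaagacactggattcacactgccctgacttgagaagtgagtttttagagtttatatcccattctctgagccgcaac

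Distal recurrent regions were mostly single, with 2228 having no other within 10000 bp, but 17 formed a regular array on chromosome 6. The array ran from chr6:47650617 to 47773230 between Ezh2 and Pdia4, in runs of 9 and 8 regions, with a median spacing of 4338 bp between summits. All 17 were CpG-rich (GC 62.7% to 65.3%), 1276 to 2214 bp wide and present in 7 lists, mouse 7 being the one without. Each of 11 held a copy of Rn4.5s without a mismatch over its 174 bases; this gene encodes a short rodent noncoding RNA made by RNA polymerase III, and RefSeq lists it once, at chr6:47654921-47655094. Counted as words of 20 bases, the regions shared a median of 76.8% to 88.9% of their sequence with the others, apart from 1 end region at 32.6%. A read that lies wholly in sequence shared without a mismatch cannot be assigned to 1 copy, and how far this touches the 17 values was not tested. The gene is printed along its minus strand, with its 8 CG pairs in capitals.
Rn4.5s: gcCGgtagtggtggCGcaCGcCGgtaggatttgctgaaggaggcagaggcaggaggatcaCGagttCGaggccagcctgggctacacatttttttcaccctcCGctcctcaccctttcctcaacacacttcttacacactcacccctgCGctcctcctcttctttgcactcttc

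H3K4me3 over this array differed between mice. Over the 17 regions, the median fold enrichment was 43.3, 39.4, 9.17 and 91.4 in mice 1, 2, 4 and 5 and 7.60, 7.60 and 23.5 in mice 8, 10 and 11. Mice 4 and 5, of the same condition, held the ends of the NCD range of folds. The median within-list percentiles were 96.8, 85.7, 38.8 and 82.5 in mice 1, 2, 4 and 5. In mice 8, 10 and 11 they were 41.7, 48.6 and 69.3. H3K4me1 overlapped 12 of the 17 in 4 or more mice, and H3K27ac was found at 0 to 4 mice per region. By mouse, H3K4me1 was at 15, 17, 16 and 12 of the 17 in mice 1, 2, 5 and 11. H3K27ac was at 7, 7, 10 and 5 in these mice. In mice 4, 7, 8 and 10, H3K4me1 was at 0, 0, 1 and 0, and H3K27ac at 0. Yet the whole H3K4me1 lists of mice 4 and 8 held 15676 and 17597 peaks, and that of mouse 1 held 592. Why the marks were seen in the same mice was not tested.

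**Figure D4:**
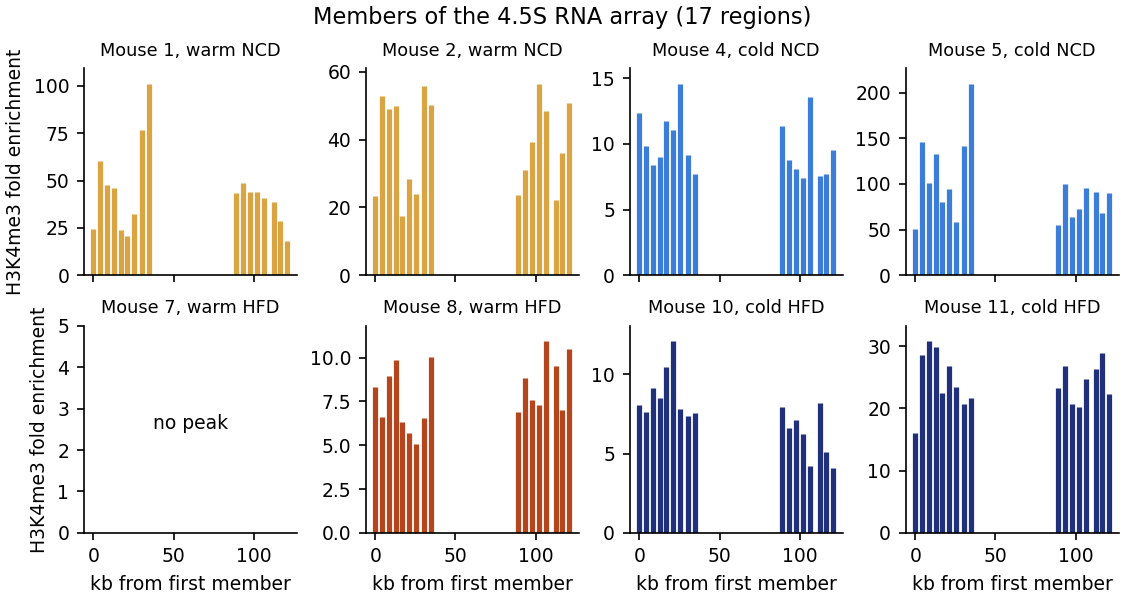
H3K4me3 fold enrichment over input of the 17 regions of the chromosome 6 array against distance in kb from the first region, 1 panel per mouse, with fold axes that differ between panels. All 17 had a peak in 7 mice, with medians from 7.60 to 91.4, and none in mouse 7.

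Genes that brown adipocytes are known for were among the neighbours. The nearest coding gene was one of 53 adipocyte genes for 27 distal recurrent regions (1.06%), against 0.611% of all recurrent regions, at 14 genes that included Ppara, Pparg, Ebf1, Ebf2, Prdm16, Cidea, Ppargc1b and Zfp516. For endothelial genes the count was 5 regions (0.196%, against 0.120%) at 5 of 12 genes. No region was nearest to a gene of the skeletal muscle, macrophage, white adipocyte or control lists, which took only 6, 4, 5 and 2 of the 17503 recurrent regions, too few to read anything from. In all, 1972 coding genes were nearest to at least 1 region, 1560 of them to exactly 1 and 15 to 5 or more. Ezh2 (9), Gse1 (8) and Pdia4 (8) had the most.

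Ppara, the receptor that drives fatty acid oxidation genes, had 5, within chr15:85665021-85683594 in and beside the noncoding gene Lncppara. The widest region of all, chr15:85668776-85674880 (6105 bp, an intron of Lncppara, 60103 bp from the Ppara start), had H3K4me3 folds of 34.6, 33.5, 10.2, 80.8, 4.94, 20.5, 6.87 and 42.9 and H3K27ac in all 8 mice at 5.97 to 31.2. Its neighbour at chr15:85666509-85667998, which touches exon 2 of Gm49539, had H3K4me3 folds of 16.7, 16.7, 7.70, 14.0, 5.04, 8.79, 7.70 and 19.6, lower than the widest region in 6 of 8 mice and higher in mice 7 and 10, and H3K27ac in all 8 mice as well. At Ebf2, a transcription factor gene of the brown adipocyte lineage, a region 43942 bp from the start (chr14:67188104-67189350, in Gm30806) had folds of 18.9, 20.4, 17.1, 19, 9.35, 8.09, 10.1 and 17.9 and H3K27ac in all 8 mice. By fold, mice 7, 8 and 10 were lowest there, and mouse 11, also on HFD, was level with the NCD mice. By within-list percentile, mouse 7 was highest at 87.3 and NCD mouse 5 lowest at 42.8. At Pparg, the master regulator of fat cells, a region 15390 bp away (chr6:115343813-115345561) was weaker, at 4.14 to 11.7, with H3K27ac in 6 mice. A region nearest to Zfp516 on chromosome 18, at 97509 bp, was in 8 lists with H3K27ac in 3 mice.

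The endothelial neighbours were in 4 to 6 lists. A region in an intron of Vwf, the gene of von Willebrand factor, was in 6 lists with folds of 4.31 to 13.3 and H3K27ac in mouse 4 alone. Near Egfl7, 7524 bp from its start, a region of 2427 bp was in 6 lists and held H3K27ac in all 8 mice. The Pecam1 intron region was in 5 lists with H3K27ac in 7 mice, and the Flt1 region in 4 lists with H3K27ac in 1. The region counted to Cdh5 lay 512536 bp away.

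Regions with H3K27ac in 6 or more mice and H3K4me1 in 4 or more numbered 84, of which 50 (59.5%) were intronic and 5 CpG-rich. The strongest was near Ahdc1 (chr4:133094862-133099585, 4724 bp wide), with H3K4me3 folds of 47.5, 40.6, 47.4, 100, 8.95, 11.2, 17.1 and 37.4. In the Mef2d intron printed above, Mef2d being a transcription factor gene, H3K4me3 was 5.90 to 19.3 and H3K27ac 5.91 to 21.9. The Itpkb intron region (chr1:180386895-180388485) had H3K27ac in 8 mice and H3K4me1 in 5, and regions nearest to Asprv1 and Azin1 had H3K27ac in 7 and H3K4me1 in 4. In each of these 5 regions H3K4me1 was seen in mice 2, 4, 5 and 11, the mice with long H3K4me1 lists apart from mouse 8.

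At the other end, 77 regions in all 8 lists had neither H3K27ac nor H3K4me1. The strongest, nearest to the zinc finger gene Zfp418 and printed above, was 519 bp wide, with folds of 31.4, 33.2, 23.0, 14.8, 13.3, 14.0, 14.7 and 35.0. The next, nearest to Pla2g10, held the RefSeq start of A930007A09Rik, and the third that of Gm4724. The region 6807 bp from Rnase4 held the leucine tRNA gene n-TLtag2, with folds from 3.19 in mouse 7 to 61.4 in mouse 5. The remaining named region, 5315 bp from Trp53rkb, ranged from 3.57 in mouse 7 to 55.5 in mouse 5.

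H3K4me3 presence ranged more widely between mice than at start sites. Of the distal recurrent regions, 92.6%, 93.9%, 84.3% and 86.6% held H3K4me3 in the NCD mice 1, 2, 4 and 5, and 23.8%, 62.5%, 47.2% and 96.1% in the HFD mice 7, 8, 10 and 11. Near start sites the share was 62.2% in mouse 7 and 82.7% to 99.1% in the other seven. The NCD mice lay between 84.3% and 93.9%, and the HFD mice on either side of that range, with mouse 11 highest of all and mouse 7 lowest. Both mice of a condition held 2243 regions (87.7%) for warm NCD, 2031 (79.4%) for cold NCD, 572 (22.4%) for warm HFD and 1204 (47.1%) for cold HFD. Of the 522 regions in 7 lists, 450 (86.2%) were missing in mouse 7. The mouse order follows list length at its ends, and its part in these shares was not tested.

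**Figure D5:**
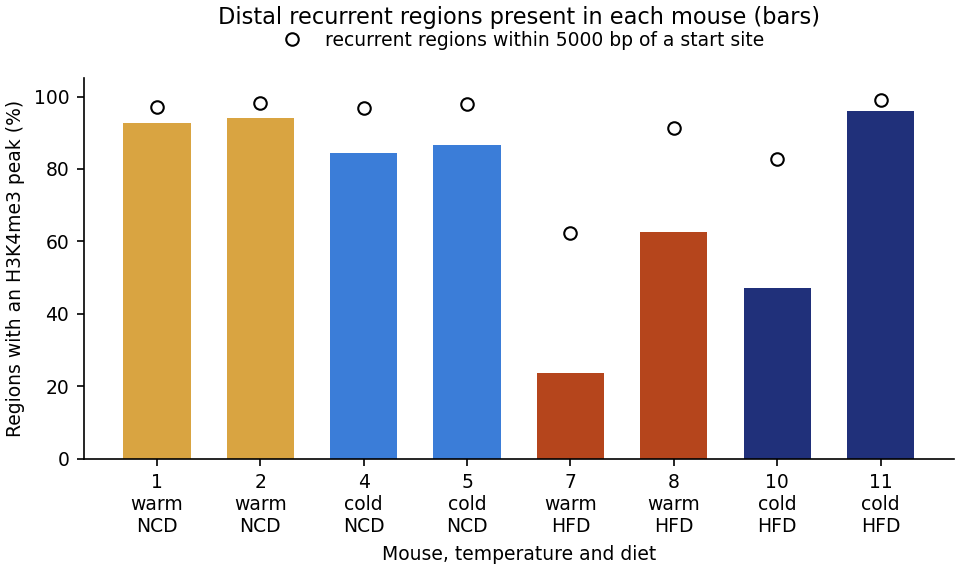
Percent of distal recurrent regions (bars) and of recurrent regions within 5000 bp of a start site (open circles) with an H3K4me3 peak, by mouse with its temperature and diet. Bars ran from 23.8% in mouse 7 to 96.1% in mouse 11, and circles from 62.2% to 99.1%.

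Regions of 1 diet or temperature alone were few. H3K4me3 was present in all 4 NCD mice and no HFD mouse at 79 distal recurrent regions (3.09%), where 0.96% of all recurrent regions were, and in all 4 cold and no warm mouse at 18 (0.704%, against 0.246%). No region was found in HFD mice alone or in warm mice alone, each seen at 0.0114% of recurrent regions. Such a pattern needs a region in exactly 4 lists, and among those 12.8% of distal and 11.8% of start-site regions were NCD-only, and 2.92% and 3.32% cold-only. Without mouse 11, whose list was the longest, 429 regions were NCD-only. These counts use the values that chose the regions. Of the NCD-only regions, the one ranking first by median −log10 q lay in an intron of Rbms2, with H3K4me3 folds of 8.37, 6.31, 17 and 13.2 in mice 1, 2, 4 and 5, while its H3K27ac was also present in HFD mice 8 and 11. Of the others named, the one nearest to 1810010D01Rik held H3K27ac in 7 mice of both diets and the one nearest to Hs3st3b1 in none. Of the cold-only regions, the one ranking first, 43594 bp from Mbip, had 13.3, 11.3, 6.24 and 7.90 in mice 4, 5, 10 and 11 and H3K27ac in no mouse. Another in an intron of Hspg2, the gene of the matrix proteoglycan perlecan, had 9.39, 10.0, 4.43 and 4.98, and one nearest to Gse1 had 10.1, 6.67, 5.65 and 9.83. The Hspg2 and Gse1 regions held H3K27ac in 7 mice of both temperatures.

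H3K27ac, which the rule did not use, separated the diets at 3 regions and the temperatures at 8. H3K27ac in all 4 NCD and no HFD mouse was seen at 3 regions (0.117%, against 0.08% of all recurrent regions), nearest to Trps1, Fgfr2 and Fignl2. At the Fgfr2 intron region, in the gene of a fibroblast growth factor receptor, H3K27ac folds were 7.06, 10.5, 9.66 and 4.16 in mice 1, 2, 4 and 5. H3K27ac in all 4 cold and no warm mouse was seen at 8 (0.313%, against 0.131%). Of these, an intron region of Pmepa1, an inhibitor of TGF-β signalling, had 11.0, 9.72, 4.85 and 4.19 in mice 4, 5, 10 and 11 and held H3K4me3 in those 4 mice alone. A region in an intron of Sgms2, 9742 bp from its start, the gene of a sphingomyelin synthase, had 5.36, 6.84, 4.36 and 7.18, and one 9476 bp from Neu1, the lysosomal sialidase gene, had 8.88, 5.80, 4.48 and 6.25. H3K4me3 was present at the Sgms2 and Neu1 regions in warm mice 1, 2 and 8 too. None was found in HFD mice alone or warm mice alone, as in all recurrent regions (0%). A single region split 4 against 4 cannot reach an exact permutation p below 0.0286, so none of these splits was tested. Mouse 7, a warm HFD mouse, had 3224 H3K27ac peaks, and without mouse 10 the temperature count was 32, without mouse 2 it was 17 and without mouse 8 it was 18.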

How the data were processed

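ChIP-Seq of H3K4me3, H3K27ac, H3K4me1 and H3K27me3 with matching input came from 8 mice, 2 per condition. The authors trimmed reads with cutadapt, aligned them to GRCm38 with Bowtie2 and called peaks per library against input with MACS2, all of versions not given in the sources used here. Deposited peak lists give a fold enrichment over input, a ratio, and a −log10 q per peak. Every deposited peak had a −log10 q of at least 1.30, and no list carries read counts, so depth and counting precision are unknown.

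H3K4me3 peaks on chromosomes 1 to 19 that shared at least 1 bp were merged (155514 of 160236 peaks), and distance ran from the region's edge to the 5′ end of any of 141767 GENCODE M21 transcripts. Another mark counted as present where its peak overlapped the region by at least 1 bp. Sequence and tRNA genes came from RefSeq on GRCm38. Shares were compared within mice by a two-sided exact sign-flip permutation test, and 6 p-values were adjusted by Benjamini-Hochberg. All sets were measured in the same lists, so the mouse number pairs the values. The p-values measure the spread between these libraries. The test functions were checked on simulated data. Alternatives changed the merging, peak threshold, start sites, distance, number of lists, overlap rule and mice.

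Regions were named by rule: the 10 with the highest median percentile in 8 lists, up to 3 per direction and mark present in all 4 mice of a diet or temperature and no other, 5 with both H3K27ac and H3K4me1, 5 with neither, up to 5 next to each gene list, the widest, and 3 with most H3K27me3. The members, lists and comparisons were chosen with earlier results of these data known. Python 3.11.15, pandas 2.3.3, numpy 2.4.6, scipy 1.17.1, pysam 0.24.0 and matplotlib 3.10.9 were used.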

Additional observations from a re-analysis of the deposited data

Results flagged for a closer look

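Of 20 groups of mice checked for a value far from the rest, 5 had one. Chance gives about 5% of independent groups, but these groups share mice, so that figure is no yardstick here. The H3K27me3 value of mouse 5 was flagged among all mice, among NCD mice and among cold mice. Mouse 1 had H3K27ac at 27.6% of the distal recurrent regions, the other NCD mice at 46.6% to 47.5%, and its H3K27ac list held 16889 peaks. Mouse 10 had 24.9% against 46.6% to 48.6% in the other cold mice, with 14511 H3K27ac peaks. Mouse 5 had H3K27me3 at 1.96% of the regions, with 6428 H3K27me3 peaks, against 0.0391% to 0.0782% in the other NCD mice and 0.0391% to 0.196% in the other cold mice and in all the other mice. The part of list length in these values was not tested.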

How the results depend on the processing

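Of the 6 comparisons of overlap, that of H3K27ac with start sites kept its direction under every alternative run. For H3K27me3 against start sites the mean difference stayed negative. In the main count 6 of 8 mice were higher, each with H3K27me3 at only 1 or 2 distal recurrent regions. H3K27ac against distal regions in 1 to 3 lists turned to -8.02 points over regions with H3K4me3 in the same mouse. H3K4me1 against start sites turned to 0.619 with H3K4me1 peaks of −log10 q of at least 5 and to 3.73 in a 1000-bp window. Calls of H3K4me1 against distal regions in 1 to 3 lists were lost at a distance over 10000 bp (-1.25), with −log10 q of at least 5 (-1.09) and over mice with 500 or more peaks (-2.84). Those of H3K27me3 were lost with gene starts only (-0.144), with the basic annotation (-0.137) and over mice with 500 or more peaks (-0.275).

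Without the replicate block, which pairs the sets by mouse, the 4 called differences of -13.7, 7.26, -2.14 and -0.272 points each had an adjusted exact permutation p of 0.727.

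The number of regions became 3889 with gene starts only and 1414 with 6 or more lists. The intronic share became 30.2% with H3K4me3 −log10 q of at least 5, 26.9% with gene starts, 31.0% over 10000 bp, 29.4% with 6 or more lists and 30.9% with the basic annotation. H3K4me3 split the diets at 49 and the temperatures at 5 regions with −log10 q of at least 5, and the temperatures at 11 over 10000 bp and 0 without mice 7 and 10. That 0 was fixed in advance, since neither temperature then kept the 4 mice that a region needs. H3K27ac split the diets at 1 region with H3K4me3 −log10 q of at least 5 and at 14 without mice 7 and 10. It split the temperatures at 4 with H3K4me3 −log10 q of at least 5, 13 with gene starts, 4 over 10000 bp, 3 with H3K27ac −log10 q of at least 5 and 32 without mice 7 and 10.

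With each mouse left out in turn, the number of regions was 2048 to 2545 and the intronic share 30.8% to 32.8%. H3K27ac differed by -15.6 to -11.5 points from start sites and by 6.18 to 10.4 from distal regions in 1 to 3 lists, H3K4me1 by -3.31 to -1.59 and -2.74 to -1.72, and H3K27me3 by -0.660 to -0.0539 and -0.372 to -0.223, with no call lost. H3K4me3 split the diets at 0 to 429 regions (0 without mouse 1, 4 or 5, 1 without mouse 2, 429 without mouse 11). It split the temperatures at 0 to 30 (0 without mouse 4, 5 or 10, 30 without mouse 2). The limit of 4 lists was kept, so a group left with fewer than 4 mice could hold no H3K4me3 region of its own. Without mouse 1, 2, 4 or 5 only HFD-only regions could be counted. Without mouse 4, 5, 10 or 11 only warm-only regions could be counted. H3K27ac split the diets at 2 to 23 (21 without mouse 1, 10 without mouse 8, 23 without mouse 11) and the temperatures at 5 to 32 (5 without mouse 4 or 11, 17 without mouse 2, 18 without mouse 8, 32 without mouse 10). The basic annotation, the added RefSeq and tRNA starts (1991 regions) and leaving out mice 7 and 10 were chosen after seeing the data. Apart from changes that follow from fewer mice or lists, the cause was not tested.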
